A study of Mus musculus with 12 samples.

Results

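The genes described here handle selenium in the liver: Selenop, Selenow, Selenoh, Sephs2, Sephs1, Secisbp2, Eefsec, Pstk, Sepsecs and Scly. They were chosen by name, and all 10 were found once each among the 57010 genes of the deposited expression table. The libraries are liver RNA of wild-type male C57BL/6J mice on a normal diet, 6 untreated controls and 6 mice gavaged daily with the selenium-enriched food fungus Aspergillus oryzae A02 at 0.5 mg selenium per kg. The age at the start is given as 6 weeks, with 7 days of acclimatization. The protocol plans 10 mice per group, and the design text gives 8 weeks of dosing. The sample descriptions say 14 weeks, without stating whether that is an age or a length of treatment. Each mouse gave 1 library, and the labels do not say whether controls were gavaged. Effects of fungus and of selenium cannot be told apart in this design, and "selenium" below names the group. A label reads hepatocyte, but markers of Kupffer cells, endothelium and blood were also present, so the values are read as whole liver. Summed markers of hepatocytes reached 24783 to 42999 TPM (transcript abundance per length, scaled to a fixed total in each library), against 29.2 to 146 TPM for Kupffer cells and 6.75 to 34.2 TPM for sinusoidal endothelium.

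Selenium enters proteins as selenocysteine, an amino acid inserted at a UGA codon that would otherwise end translation. Selenocysteine is built on its own transfer RNA: the RNA is charged with serine, Pstk phosphorylates that serine, and Sepsecs exchanges the phosphate for selenium from selenophosphate, which Sephs2 makes. Secisbp2 binds a stem-loop in the 3' untranslated region of selenoprotein messages, the SECIS element, and Eefsec brings the charged transfer RNA to the ribosome. Hepatocytes secrete Selenop into plasma to supply other organs, and Scly, selenocysteine lyase, frees selenium from selenocysteine for reuse. Selenow and Selenoh are small selenoproteins with a redox fold.

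Of the 10 genes, 4 encode selenoproteins, and their recoded codons show why Selenop dominates what follows. The sequences below are coding strands from GENCODE mouse release M21, 12 bases on either side, with the selenocysteine codons in capitals. The Selenop lines hold its first such codon, number 59 from the start codon, and its last 4, numbers 366, 368, 375 and 377. In Sephs1, which has no selenocysteine, the capitals mark codon 29, which aligns with selenocysteine codon 63 of Sephs2.
Selenop, first: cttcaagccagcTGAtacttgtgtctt
Selenop, last 4: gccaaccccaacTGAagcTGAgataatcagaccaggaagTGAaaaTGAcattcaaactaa
Selenow: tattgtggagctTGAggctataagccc
Selenoh: cattgtacgagcTGAcgcgtgtacggc
Sephs2: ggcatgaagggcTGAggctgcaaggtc
Sephs1: gaactgaaaggcACAggctgcaaagtg

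The Selenop transcript held 10 selenocysteine codons in 380 codons, against 1 each in Selenow, Selenoh and Sephs2. Among the 24 mouse genes annotated with selenocysteine, 22 had 1 such codon and 1, Dio2, had 2. The true stop codon was TAA in 12 and TAG in 10 of the 24. Only Selenow and Sephs2 used TGA both for selenocysteine and as the stop. The coding sequences of Sephs2 and Sephs1 were identical at 68.5% of aligned bases. Sephs2 is also the only member selenoprotein whose annotated transcript has a single exon. In Selenop, Selenoh and Selenow the first selenocysteine codon lay 357, 204 and 243 bases before the last exon junction, a position at which a UGA read as a stop can expose a message to nonsense-mediated decay.

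**Figure D1:**
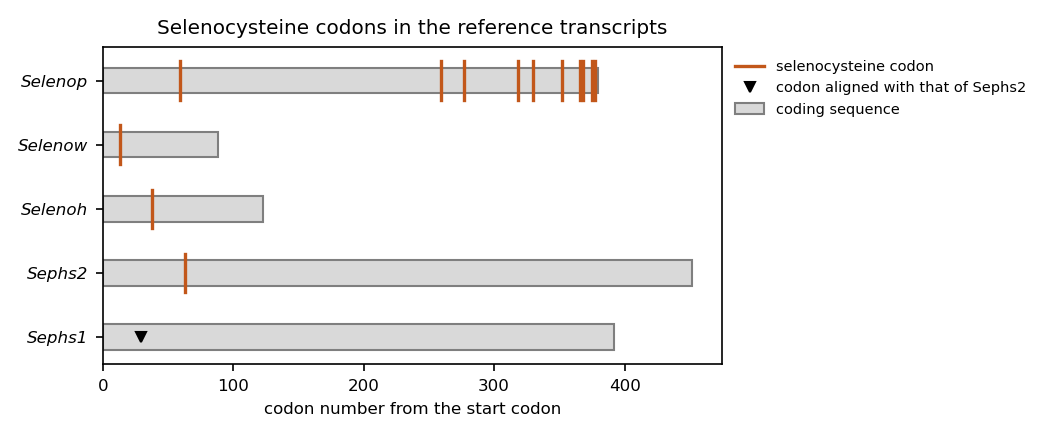
Coding sequences (grey bars, length in codons from the start codon) of the 4 member selenoproteins and Sephs1, with each selenocysteine codon as an orange line and the aligned Sephs1 codon as a triangle. Selenop holds 10 such codons, 1 at codon 59 and the others from codon 259 on, and Selenow, Selenoh and Sephs2 hold 1 each.

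The 10 genes spanned a wide range of abundance in liver, given here over all 12 libraries. Selenop averaged 1910 ± 393 TPM (mean ± SD, n = 12), from 1330 to 2708 TPM, and ranked 58 of 57010 genes by mean. Sephs2 followed at 222 ± 36.4 TPM, Selenow at 90.3 ± 20.9 TPM and Scly at 25.6 ± 5.95 TPM. Each of these 4 was above the next in the order in 12 of 12 libraries, so those steps exceed the spread between mice. The other 6 genes were much scarcer. Eefsec averaged 7.94 ± 1.55 TPM, Pstk 6.87 ± 1.28 TPM, Sepsecs 5.87 ± 1.21 TPM, Sephs1 5.76 ± 0.904 TPM and Selenoh 5.36 ± 1.46 TPM. Neighbours among these 5 swapped places between libraries, the first of a pair being higher in 6 to 9 of 12. Secisbp2 was lowest, at 2.99 ± 0.416 TPM, and lay below Selenoh in 12 of 12 libraries. The ratio of Sephs2 to its paralog Sephs1 ran from 25.5 to 54.8 between libraries, with means of 41.4 ± 7.95 in controls and 37.2 ± 8.35 with selenium (SD, n = 6 per group).

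Multiplying each gene's TPM by its number of selenocysteine codons gives the codons that liver messages present for recoding. All transcripts of a gene count alike in this sum. The total, in the same scaled units as TPM, was 22117 ± 4946 selenocysteine codons in controls and 22638 ± 3337 with selenium (mean ± SD, n = 6 per group). The controls ran from 16202 to 30669 and enclosed every selenium library, which ran from 18120 to 26408. Selenop carried 84.8 ± 2.45% of these codons in controls and 85.2 ± 3.82% with selenium. It made up a smaller part of selenoprotein messages themselves, 36.2 ± 4.55% and 37.3 ± 6.23%. Gpx1, the main cytosolic glutathione peroxidase, has 1 selenocysteine codon at a transcript level near that of Selenop, and carried 9.25 ± 1.51% and 9.20 ± 2.71% of the codons. Sephs2 carried 1.07 ± 0.291% and 0.964 ± 0.143%, and Selenow 0.424 ± 0.140% and 0.415 ± 0.163%. Selenoh, with the fewest codons of the member selenoproteins, carried 0.0235 ± 0.00814% and 0.0252 ± 0.00584%. For each Secisbp2 transcript the liver held 1777 ± 397 selenoprotein transcripts in controls and 1752 ± 237 with selenium. The same ratio was 695 ± 181 and 649 ± 117 for Eefsec, and 835 ± 194 and 1017 ± 302 for Sepsecs. For Pstk it was 708 ± 221 and 862 ± 152. In each of these quantities the groups overlapped. Their means differed by less than the smaller SD in all but the Pstk ratio, where the difference was just above the selenium SD. No test was run on them.

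**Figure D2:**
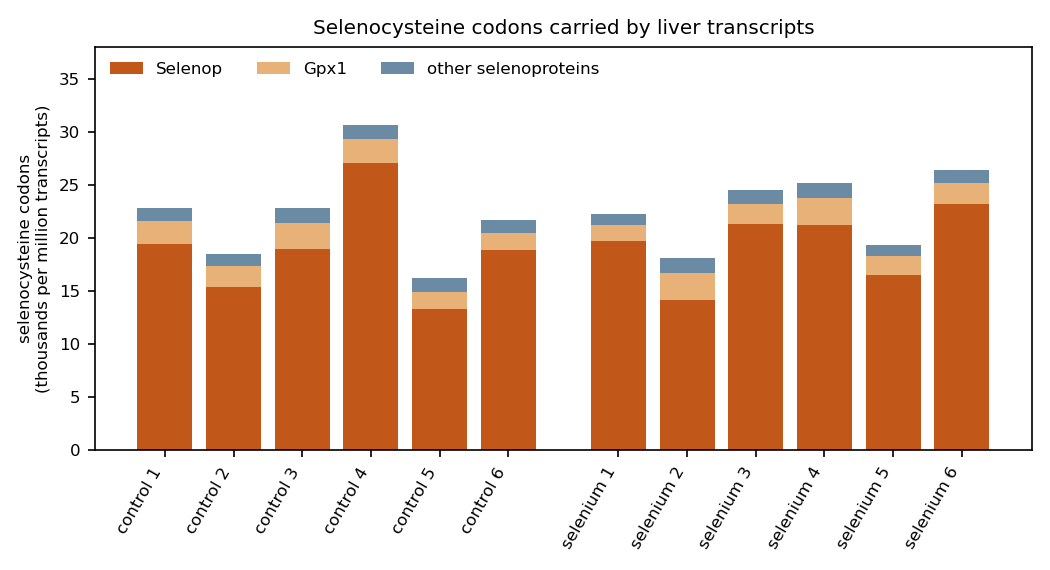
Selenocysteine codons in TPM-scaled units (stacked bars from 0) in each of the 12 libraries, split into Selenop, Gpx1 and all other selenoproteins. Selenop fills 78.0 to 88.3% of every bar, and the highest and lowest bars, control 4 and control 5, belong to the same group.

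The comparison of selenium with control asks whether the selenium-enriched fungus changed the messages for selenium transport, selenocysteine synthesis and recycling. No difference passed the test in any of the 10. Pstk, the kinase of the selenocysteine pathway, had the smallest p, with 7.57 ± 1.13 TPM in controls and a mean of 6.17 ± 1.06 TPM with selenium. Scly had the largest positive estimate on the log2 scale, with means of 23.2 ± 2.75 and 28.1 ± 7.45 TPM. Selenop stood at 1884 ± 471 and 1936 ± 340 TPM. In bulk liver, fewer cells of a type and less RNA per cell cannot be told apart.

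Genes were tested in limma on log2(TPM + 1), with two-sided p-values and Benjamini-Hochberg adjustment over the 9980 genes that had at least 1 TPM in 6 or more libraries; all 10 passed this filter. Of the 10, 0 had an adjusted p under 0.05, where 0.331% of all genes tested did, 0.02% higher and 0.311% lower with selenium. That balance over all genes, 2 higher and 31 lower, was 34 and 13 in the 8 libraries with low Dbp (described below), 114 and 141 with array weights, and 56 and 115 without control 6. At an unadjusted p under 0.05 the count was also 0, where 18.5% of genes tested passed. The groups overlapped in each of the 10, and were separate in 1.63% of genes tested. An exact permutation test per gene over 924 relabellings called 0 of the 10, but also 0 of all 9980 genes tested. Cth, a gene described below whose groups were fully separate, reached only an adjusted p of 0.133 in that test. Its result for the 10 is therefore not informative. Of the 10 log2 changes, selenium minus control, 6 were positive, with a median of 0.03. Over all genes tested 45.4% were positive and the median was -0.03. The share of TPM from mitochondrial-encoded genes moved with the groups, at 13.3 to 22.8% in controls and 8.10 to 13.8% with selenium. With TPM rescaled without these genes, the estimates of Selenop, Sephs1 and Secisbp2 changed from positive to -0.043, -0.0052 and -0.063. The largest change was then that of Pstk, at -0.35 (limma unadjusted p = 0.0222, adjusted p = 0.160), and after adjustment 0 of the 10 passed. Summed Kupffer cell markers were at 51.6 ± 21.1 TPM for controls against 85.8 ± 41.5 TPM for selenium. Those of hepatocytes were at 31376 ± 6438 against 32469 ± 4872 TPM. Alb was the largest part of this sum in every library, so the sum says little of scarcer hepatocyte markers. Stellate cell and fibroblast markers went the other way from Kupffer cells, at 53.9 ± 6.42 against 39.2 ± 18.1 TPM. Selenium 3, at 71.2 TPM, was above all controls here, and every other selenium library was below the lowest control, 45.8 TPM. Dcn was the largest part of this sum in every library, at 27.7 to 58.4 TPM in controls and 15.6 to 38.2 TPM with selenium. In selenium 3, where Dcn was at 38.2 TPM, Col3a1 and Col1a1 were at 21.8 and 8.17 TPM. They were at 17.9 and 8.40 TPM in control 5. Blood sums averaged 695 ± 709 against 407 ± 192 TPM, with control 6 at 2104 TPM. Mean sums were 18.7 against 17.3 TPM for sinusoidal endothelium and 3.68 against 2.26 TPM for cholangiocytes. No marker gene passed the test in limma, and the part of cell makeup in the values was not tested.

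**Figure D3:**
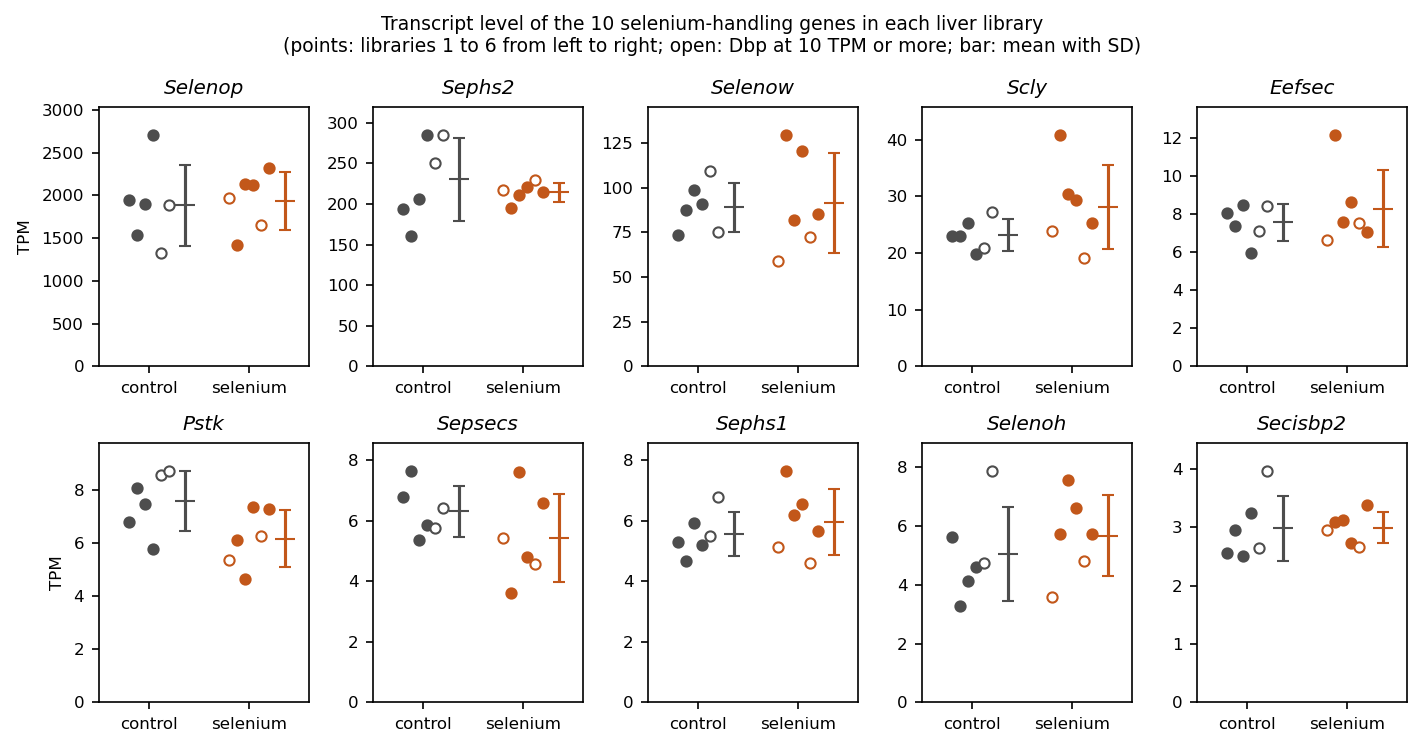
TPM of each gene (own vertical axis from 0) in the 6 control and 6 selenium libraries, numbered 1 to 6 from left to right within a group, with the mean and SD beside them. Open points are the 4 libraries with Dbp at 10 TPM or more, and the points of the groups overlap in every panel.

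Selenop, the carrier, had a lowest, median and highest value of 1330, 1892 and 2708 TPM in controls and of 1414, 2047 and 2324 TPM with selenium. The extremes were both controls, and 4 of 6 selenium libraries lay above the control median. Its log2 change was 0.05 with a 95% interval of -0.32 to 0.43, which spans 0.80-fold to 1.35-fold on the TPM + 1 scale.

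Selenow ran from 73.8 through a median of 89.1 to 109 TPM in controls and from 59.2 through 83.6 to 130 TPM with selenium. The selenium group was the wider, with 2 libraries above and 2 below all controls. Its log2 change of -0.0036, with an interval of -0.40 to 0.39, turned to 0.015 with median-of-ratios scaling. Selenoh ran from 3.27 through 4.68 to 7.88 TPM in controls and from 3.58 through 5.74 to 7.57 TPM with selenium. Controls held both the highest and the lowest value, and 5 of 6 selenium libraries were above the control median. The log2 change of Selenoh was 0.15 (-0.24 to 0.54).

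Sephs2, the selenophosphate synthetase that is itself a selenoprotein, ran from 161 through 228 to 285 TPM in controls. With selenium it ran only from 194 through 216 to 229 TPM, inside the control range. The coefficient of variation was 22.3% in controls and 5.45% with selenium, a difference in spread that was not tested. The log2 change of Sephs2 was -0.07 (-0.38 to 0.24). Sephs1, a paralog that does not make selenophosphate, ran from 4.68 through 5.39 to 6.78 TPM in controls and from 4.60 through 5.93 to 7.64 TPM with selenium. Here the selenium group held both ends of the range. For Sephs1 the log2 change was 0.08 (-0.18 to 0.34).

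Pstk and Sepsecs, which act in sequence on the transfer RNA, had the 2 lowest estimates. Pstk ran from 5.78 through 7.78 to 8.72 TPM in controls and from 4.64 through 6.19 to 7.36 TPM with selenium. No selenium library reached the control median, and 4 of 6 controls lay above every selenium library. The estimate for Pstk was a log2 change of -0.26 (SE 0.13, interval -0.54 to 0.01), with an unadjusted p of 0.0619 and an adjusted p of 0.300 in limma. Sepsecs ran from 5.36 through 6.14 to 7.64 TPM in controls and from 3.61 through 5.12 to 7.61 TPM with selenium. Here 3 selenium libraries were below all controls, while selenium 3 nearly equalled the highest control. For Sepsecs the log2 change was -0.20 (-0.52 to 0.11, limma adjusted p = 0.485), and -0.11 without selenium 2, its lowest library.

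Secisbp2 and Eefsec, the recoding factors, also had groups that overlapped and intervals that included 0. Secisbp2 ran from 2.51 through 2.81 to 3.97 TPM in controls and from 2.66 through 3.02 to 3.38 TPM with selenium. Its within-group SD of 0.15 on the log2 scale was at percentile 6.11 of genes tested, and its log2 change of 0.01 (-0.22 to 0.24) had the narrowest interval of the 10. The pseudocount of 1 shrinks both values at so low a level. Eefsec ran from 5.97 through 7.75 to 8.50 TPM in controls and from 6.66 through 7.59 to 12.2 TPM with selenium. A single library, selenium 2, set the upper end. The log2 change of Eefsec was 0.10 (-0.20 to 0.39) with that library and -0.0091 without it.

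Scly, the recycling enzyme, ran from 19.7 through 23.0 to 27.2 TPM in controls and from 19.1 through 27.3 to 40.8 TPM with selenium. Of the selenium libraries 3 lay above all controls, and selenium 5 lay below them. Its log2 change was 0.24 (SE 0.16, interval -0.10 to 0.57), with an unadjusted p of 0.149 and an adjusted p of 0.439 in limma. Without selenium 2, which held the highest value, the log2 change was 0.13.

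In the authors' deposited table, which compares the same libraries, none of the 10 passed either, and the lowest adjusted p was 0.306, for Scly. That table calls 2.16% of its 57010 genes at an adjusted p under 0.05. Among the 9980 genes tested here the authors' deposited table calls 9.87%, with 6.97% higher and 2.9% lower in selenium, so both its count and its balance differ from those of limma on TPM. Turned to selenium over control, its log2 changes in the authors' deposited table were 0.29 for Scly, 0.24 for Selenoh, 0.16 for Eefsec, 0.11 for Selenop and -0.22 for Pstk. Selenow had a log2 change of 0.11 in the authors' deposited table, while the TPM estimate was -0.0036.

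**Figure D4:**
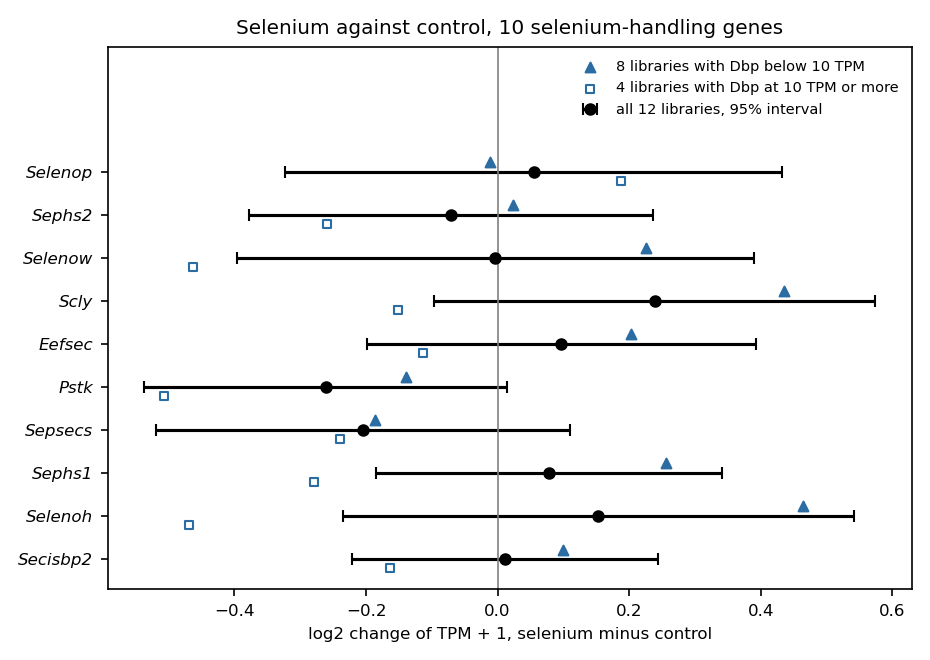
Log2 change of TPM + 1, selenium minus control, for each gene: black points with 95% intervals are all 12 libraries, triangles the 8 with Dbp below 10 TPM and squares the other 4. All 10 intervals include 0, and triangles and squares lie on opposite sides of 0 for 8 genes.

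Apart from treatment, Dbp, a gene of the circadian clock, split the libraries: it was at 15.7 to 53.6 TPM in controls 5 and 6 and selenium 1 and 5, and at 0.720 to 1.44 TPM in the other 8. The labels give no time of sampling. Within the 8 libraries with low Dbp, 4 per group, 7 of the 10 genes had a positive log2 change, led by Selenoh at 0.46 (unadjusted p = 0.0138, adjusted p = 0.135 in limma) and Scly at 0.43 (unadjusted p = 0.0188, adjusted p = 0.154). Within the 4 with high Dbp, 2 per group, 1 of 10 was positive, and Selenoh, Pstk and Selenow were at -0.47, -0.51 and -0.46. The signs were opposite in 8 of 10 genes, and in 44.0% of all genes tested. The median log2 change over all genes was itself 0.06 in the low-Dbp libraries and -0.17 in the high-Dbp ones. A limma test of the difference between the log2 changes gave an unadjusted p of 0.0108 for Selenoh and 0.0295 for Sephs1, with adjusted p of 0.454 and 0.503. At an unadjusted p under 0.05, 2 of 10 genes stood against 9.67% of all genes tested, and 0 of 9980 genes passed after adjustment. With clock state as a term in the model, 0 of the 10 passed; the log2 changes are then the same by construction, as each group holds 4 libraries of low and 2 of high Dbp.

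Some of the 10 varied together from mouse to mouse. On log2(TPM + 1) minus the group mean, over 12 libraries, Pearson's r was 0.89 for Scly and Sephs1, 0.82 for Scly and Eefsec and 0.74 for Sephs1 and Eefsec. The other 42 of the 45 pairs had r of at most 0.66, with a median of 0.18 over all pairs. Selenium 2 had the highest value of its group in Selenow, Sephs1, Eefsec and Scly and the lowest in Selenop, Sephs2 and Sepsecs. Without the 2 libraries farthest from the median of the first gene, r was 0.80 for Sephs1 and Scly, 0.62 for Eefsec and Scly and 0.46 for Sephs1 and Eefsec. Sephs1 and Scly were the only pair above 0.7 in all 12 libraries, without those 2, and in the 8 with low Dbp (r = 0.81). Eefsec and Sepsecs had the lowest r over all 12 libraries, at -0.53, and -0.34 without the 2 farthest from the median of Eefsec. In the 8 with low Dbp their r was -0.70, where Selenow and Sepsecs were lowest at -0.89. Selenop and Eefsec stood at -0.52 over all 12 and at -0.83 with low Dbp. Without the 2 libraries farthest from the median of Selenop, that pair was at -0.55. The tested genes with a proper symbol most like Selenop were Dpyd, which starts pyrimidine breakdown (r = 0.96), Mmadhc, of vitamin B12 handling (r = 0.95), and the zinc finger gene Zfp874b (r = 0.95), out of 9980 genes and over the same 12 libraries. Genes of the same library share its scaling and clock state, and clock state differed between libraries. The 8 libraries with low Dbp include selenium 2. How often pairs among all genes tested reach such r is not given here. These values of r are descriptions.

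Selenium 2 was also at an end of some cell type marker sums. Its summed stellate cell and fibroblast markers, 17.6 TPM, were the lowest of the 12 libraries, with the next at 30.3 TPM. Its endothelial markers, 11.8 TPM, were the lowest of the selenium group, and its hepatocyte markers, 38176 TPM, the highest of that group. Both lay within the control ranges, of 6.75 to 34.2 and 25929 to 42999 TPM. Its Kupffer cell, blood and cholangiocyte sums, 45.6, 388 and 2.05 TPM, were at neither end of the selenium group. Its share of TPM from mitochondrial-encoded genes was 11.1%, within the selenium range of 8.10 to 13.8%. The part of these in the values above was not tested.

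**Figure D5:**
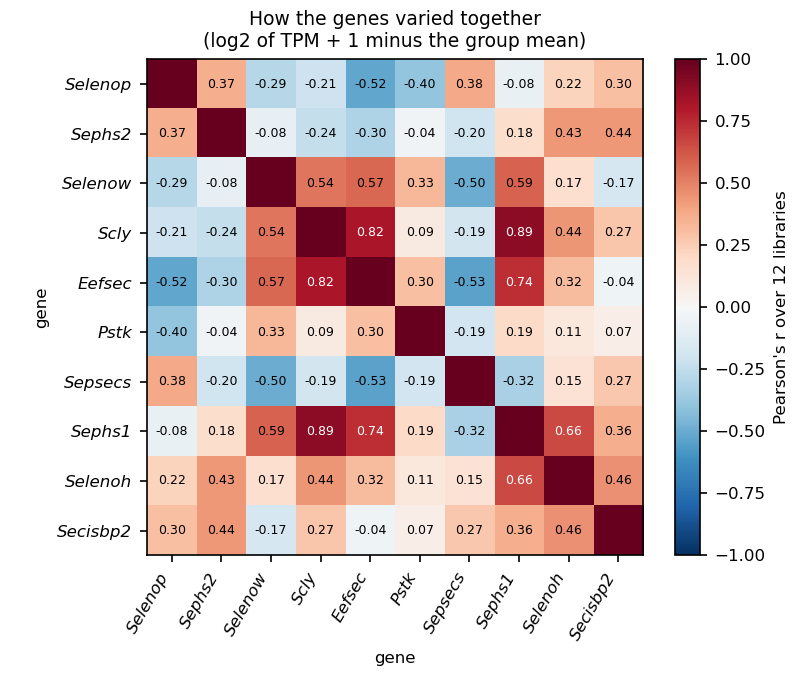
Pearson's r between each pair of the 10 genes over the 12 libraries, on log2(TPM + 1) minus the group mean, coloured from -1 (blue) to 1 (red). Scly, Eefsec and Sephs1 form the reddest block, with r from 0.74 to 0.89.

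Around the 10 genes, 58 others of selenium biology were read from 5 lists, and 51 passed the filter. After adjustment 0 of the 51 passed in limma, against 13 at an unadjusted p under 0.05, 7 higher and 6 lower, where 7.01% and 11.4% of all genes tested were. The groups did not overlap in 3 of the 51, where 1.63% of all genes tested did not. The authors' deposited table calls 8 of the 51 at an adjusted p under 0.05, against its 9.87% of genes tested. It has Gsr, Txnrd1, Selenos, Msrb1, Lrp1 and Elp3 higher and Cth and Secisbp2l lower. Lrp1, a receptor of the same family as Lrp8 and Lrp2, had a log2 change of 0.62 in the authors' deposited table (adjusted p = 0.0157), and 0.34 in limma (adjusted p = 0.253). For Elp3, the catalytic subunit of Elongator, which modifies the wobble base of transfer RNAs, the authors' deposited table gives 0.30 (adjusted p = 0.0336), where limma gave 0.19 (adjusted p = 0.372).

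Those 3 were Ncl, Cth and Secisbp2l. Cth, cystathionine gamma-lyase, which can also release selenium from selenium-containing amino acids, stood at 143 to 188 TPM in controls and 89.7 to 133 TPM with selenium. Its log2 change was -0.49 (SE 0.11, limma adjusted p = 0.0671), and -0.31 in the authors' deposited table (adjusted p = 0.0448). Nucleolin, Ncl, which has been found to bind SECIS elements, stood at 34.5 to 65.1 TPM and 19.9 to 33.2 TPM, a log2 change of -0.74 (SE 0.17, limma adjusted p = 0.0671). Ncl passed without control 6 (-0.79, limma adjusted p = 0.0440), while the authors' deposited table has it at -0.23 with an adjusted p of 0.387. Secisbp2l, the paralog of Secisbp2, stood at 5.22 to 6.60 TPM and 2.96 to 5.20 TPM, a log2 change of -0.39 (SE 0.12, limma adjusted p = 0.125), and -0.40 in the authors' deposited table (adjusted p = 0.0276). Its lowest control and highest selenium library were nearly level.

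For transfer RNA synthesis and modification, 0 of 9 passed and the median log2 change was -0.09. Its smallest p belonged to seryl-tRNA synthetase, Sars, which charges the serine for selenocysteine, with means of 22.8 ± 3.50 TPM in controls against 29.4 ± 6.65 TPM with selenium (limma adjusted p = 0.245). Selenium 2 was highest here too, at 41.3 TPM. Next by p came Alkbh8, a methyltransferase for the wobble base of such transfer RNAs, at 1.68 ± 0.140 and 1.36 ± 0.170 TPM, and Trit1, which isopentenylates an anticodon-loop adenosine, at 4.19 ± 0.531 and 3.47 ± 0.599 TPM.

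For SECIS binding and recoding regulators, 0 of 8 passed, with a median of -0.09. Beside Ncl and Secisbp2l, the ribosomal protein gene Rpl30 averaged 146 ± 25.7 and 119 ± 19.0 TPM, values that are uncertain because it has near-identical processed copies. For nonsense-mediated decay, 0 of 7 passed, with a median of 0.08. Upf3b, a factor that links exon junctions to decay, stood at a mean of 5.31 ± 0.944 TPM in controls against 3.66 ± 1.40 TPM with selenium (log2 change -0.47, limma adjusted p = 0.168). In the same list Smg1, the kinase of Upf1, had a log2 change of -0.20 and the endonuclease gene Smg6 one of 0.11.

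For uptake receptors and hepatic selenium metabolism, 12 of 14 passed the filter, 0 passed the test and the median was 0.06. The receptors that take up Selenop elsewhere, Lrp8 and Lrp2, did not pass the filter and reached at most 0.10 and 0.07 TPM. Glutathione reductase, Gsr, averaged 11.4 ± 3.94 and 20.8 ± 7.29 TPM (log2 change 0.80, limma adjusted p = 0.129). In the authors' deposited table Gsr was at 0.59 (adjusted p = 0.00757). Thioredoxin, Txn1, was at 213 ± 62.7 and 152 ± 29.6 TPM (limma adjusted p = 0.242).

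Of the 20 other selenoproteins, 15 passed the filter, 0 passed the test and the median was 0.01. The 3 with the smallest p were Msrb1, Txnrd1 and Selenos, a methionine sulfoxide reductase, a thioredoxin reductase and a membrane protein of the endoplasmic reticulum. Their log2 changes were 0.39, 0.48 and 0.27, with adjusted p from 0.163 to 0.220 in limma. All 3 passed in the authors' deposited table, at 0.46, 0.55 and 0.36, with adjusted p of 0.0238, 0.00418 and 0.00673. Among the 19 selenoproteins tested, members included, 10 had their first selenocysteine codon over 55 bases before the last exon junction. In these the median log2 change was -0.09, with 3 positive, and in the other 9 it was 0.10, with 7 positive. Over all genes tested 45.4% were positive. The other 9 hold Msrb1, Txnrd1 and Selenos, named above for their small p, and Sephs2, whose transcript has no exon junction. This split was made after values were known. Its difference, and any part of decay in it, was not tested.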

How the data were processed

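RNA from 12 frozen mouse livers was sequenced. The GRCm39 build, RSEM 1.2.8, HISAT2 2.1.0 and DESeq2 are named, per the submitters' processing notes; library selection and strand use are not given in the sources used here. The authors deposited TPM per gene and library, scaled to a fixed total per library, so depth and counting error are unknown. Their log2 fold change (control over selenium, turned here) and p-value columns, raw and adjusted, are as deposited. Series and single-library values were equal in 100% of cases.

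TPM was analysed in R 4.3.3 with limma 3.58.1 (intensity trend, no covariates) on log2(TPM + 1), after a filter of 1 TPM in 6 libraries and a test on simulated data. No count test was run. Genes, lists and the Dbp limit of 10 TPM were chosen with earlier results of these data known. The genes named are the 10, the 3 of each list with the smallest p, the 3 most like Selenop, and Dbp. Lrp8, Lrp2, Gpx1, Dio2, Lrp1, Elp3 and the marker genes Alb, Dcn, Col3a1 and Col1a1 were named outside this rule. Selenocysteine codons came from the GENCODE M21 annotation of GRCm38, in place of a protein table, so no coordinates are given. Alternatives were pseudocounts of 0.1 and 0.5, other filters, scalings, variance models and tests, a replicate block, clock state and leaving out each library; the libraries with high Dbp alone were added after seeing the data.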

Additional observations from a re-analysis of the deposited data

Results flagged for a closer look

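Among 54 groups of 6 libraries looked at for the 10 genes, the list genes named and the codon totals, 2 held a value that stood far from the rest, where chance gives about 1 in 20. Eefsec was at 12.2 TPM in selenium 2, with the next selenium library at 8.65 TPM. Upf3b was at 6.46 TPM in selenium 6, inside the control range of 4.47 to 6.80 TPM, with the next selenium library at 3.40 TPM. Without selenium 6 the log2 change of Upf3b was -0.61 (limma adjusted p = 0.0530). The cause of either outlying value was not tested.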

How the results depend on the processing

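Over 279 estimates of the 10 genes under alternative settings, 0 passed the threshold, and the lowest adjusted p in limma was 0.135; the filter of 5 TPM left out Secisbp2. The sign changed in 30. Some settings counted among the 279 leave the log2 change the same by construction, so they could not change a sign. They are the other filters, limma without the trend, robust empirical Bayes, the replicate block and clock state as a term. The permutation test and the unadjusted p also belong to them. With TPM rescaled without mitochondrial genes, Selenop was at -0.043, Sephs1 at -0.0052 and Secisbp2 at -0.063; with array weights, Selenow was at 0.051, Sephs2 at 0.055 and Eefsec at -0.0026. Selenow was 0.015 with median-of-ratios scaling and 0.018 with quantile normalization. With low Dbp alone, Selenop was at -0.012, Selenow at 0.23 and Sephs2 at 0.023. With high Dbp alone, Selenoh was at -0.47, Sephs1 at -0.28, Secisbp2 at -0.16, Eefsec at -0.11, Scly at -0.15, Sars at -0.0015 and Smg6 at -0.13. Leaving out 1 library gave -0.039 to 0.17 for Selenop, -0.11 to 0.11 for Selenow, -0.023 to 0.078 for Secisbp2, -0.0091 to 0.15 for Eefsec, 0.06 to 0.27 for Selenoh, 0.13 to 0.34 for Scly and -0.33 to -0.19 for Pstk. In limma, the unadjusted p of Pstk was 0.0234 without control 4, 0.0392 without selenium 4 and 0.0418 without selenium 6. That of Sepsecs was 0.0484 without selenium 3, and that of Scly 0.0335 without selenium 5. The cause was not tested.

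Over all genes, 33 passed (2 higher, 31 lower), against 47 with low Dbp alone (34 and 13), 1 without a filter, 12 with quantile normalization, 190 without mitochondrial genes (6 and 184), 56 with robust empirical Bayes, 255 with array weights (114 and 141), 0 with high Dbp alone, 0 by exact permutation, 1842 unadjusted, and 7 (without control 2) to 171 (without control 6, 56 and 115) with 1 library left out. Of the list genes, 2 passed without mitochondrial genes (Ncl and Cth), 3 with array weights, 13 unadjusted, and 0 to 1 (Ncl, without control 6) with 1 library left out. The replicate block gave 3 genes and 0 of the 10. Same-numbered libraries shared only a number, as their deviations correlated from -0.14 to 0.11 and 0 of 6 correlated best with their own. The unknown depth sets no floor for the scarce genes.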
